A study of Mus musculus with 3 samples.

Results

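Cadherins are membrane proteins that hold neighbouring cells together through calcium-dependent contacts between their extracellular repeats. The genes described here are the cadherins, the cadherin-related proteins, the protocadherins outside the large gene clusters, the Fat cadherins and Dachsous 1. They were taken by symbol, as all rows named Cdh, Cdhr or Pcdh followed by a number alone, Fat1 to Fat4, and Dchs1, which gave 43 of the 23284 genes listed. Symbols with a letter after the number were not taken, so the subfamilies below may not be complete.

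Classical cadherins bind catenins through their cytoplasmic tails and so link the contact to actin, and type I and type II members differ in how their outermost repeats dock. In the limb bud, mesenchymal cells condense before they become cartilage, a step in which N-cadherin (Cdh2) is well known. Delta protocadherins have a different cytoplasmic tail and adhere more weakly, and Fat4 and Dchs1 form a ligand and receptor pair across cell borders that orients cells in a tissue.

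RNA-seq profiles came from cells sorted by green fluorescence from embryonic mouse digits, with 1 library for each of 3 populations. The Lgr5+ library held GFP-positive cells of forelimb digits at E14.5 (E counts embryonic days), labelled interzone (the band of cells where a joint will form), from Lgr5-eGFPCreERT2/+ mice. The Lgr5- library held the GFP-negative cells of the same stage, digits and genotype, labelled non-interzone. The Sox9+ library held GFP-positive digit cells at E13.5 from Sox9-eGFP/+ mice, a reporter of the transcription factor that sets up cartilage. All mice are labelled C57/bl6, and no agent or treatment is named. Cells were chosen by the reporter alone and not by position, a reporter stands for the gene only where its allele is active, and the sources used here name neither the limb of the Sox9+ cells nor how many embryos were pooled.

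Values are FPKM, the fragments of a gene divided by its transcript length and by the size of its library, so that levels can be compared between genes. They summed to 534025 in Lgr5+ cells, 547115 in Lgr5- cells and 593871 in Sox9+ cells, and 11924 to 12002 genes reached 1 FPKM. The labels were checked on their own genes. Lgr5 stood at 26.8 FPKM in Lgr5+ cells, 1.36 FPKM in Lgr5- cells and 3.48 FPKM in Sox9+ cells, whereas Sox9 stood at 332 FPKM in Lgr5+ cells, 147.1 FPKM in Lgr5- cells and 254.7 FPKM in Sox9+ cells. Sox9 RNA thus does not single out the Sox9+ library, but the summed level of 9 cartilage genes was highest there, at 7385 FPKM, against 3239 FPKM in Lgr5+ cells and 1990 FPKM in Lgr5- cells. The collagen gene Col2a1 alone gave 5304 FPKM of the Sox9+ sum. Of the 9 genes, 6 were at least 2-fold lower in Lgr5+ than in Sox9+ cells, against 3.96% of all measured genes. The other 3, Sox9, Sox5 and Sox6, went the other way and were highest in Lgr5+ cells. The libraries also stood apart in RNA that is not of digit mesenchyme. The 9 red blood cell markers summed to 150.3 FPKM in Lgr5+ cells, 3978 FPKM in Lgr5- cells and 141.3 FPKM in Sox9+ cells, and 9 macrophage markers to 83.5 FPKM in Lgr5+ cells, 43.9 FPKM in Lgr5- cells and 11.7 FPKM in Sox9+ cells. The ribosomal RNA gene Rn45s took 1.86% of the summed FPKM in Lgr5+ cells, 6.13% in Lgr5- cells and 6.43% in Sox9+ cells. The part of these differences in the ratios below was not tested gene by gene, and a scaling by the sum without the 50 most abundant genes is among the alternatives. Folds are taken on FPKM + 1, a scale that makes the differences of low genes look smaller than they are. In each pair, genes of at least 1 FPKM in either library were called measured, and 2-fold was the threshold for a difference. No group had a replicate, so no test, error or p-value is given, each difference is between libraries, and the read depth is unknown.

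Of the 43 genes, 23 reached 1 FPKM in at least 1 library and 10 reached 10 FPKM. The mesenchymal cadherin gene Cdh11 was the most abundant of them in each of the 3 libraries, followed by the delta protocadherin gene Pcdh18. Among the 23, the level was highest in Lgr5+ cells for 5 genes, in Lgr5- cells for 11 and in Sox9+ cells for 7. Over all 12754 genes at 1 FPKM or more the same shares were 39.1%, 26.6% and 34.3%, against 21.7%, 47.8% and 30.4% of the 23. The 5 genes highest in Lgr5+ cells were Cdh1, Cdh10, Cdh11, Cdh13 and Cdh15, none of them a protocadherin. Of the 9 delta protocadherins 5 were highest in Sox9+ cells, and all 3 of the Fat and Dachsous genes that were expressed were highest in Lgr5- cells. The library with the highest level was unchanged for each of the 23 genes under 5 other scalings of the libraries.

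**Figure D1:**
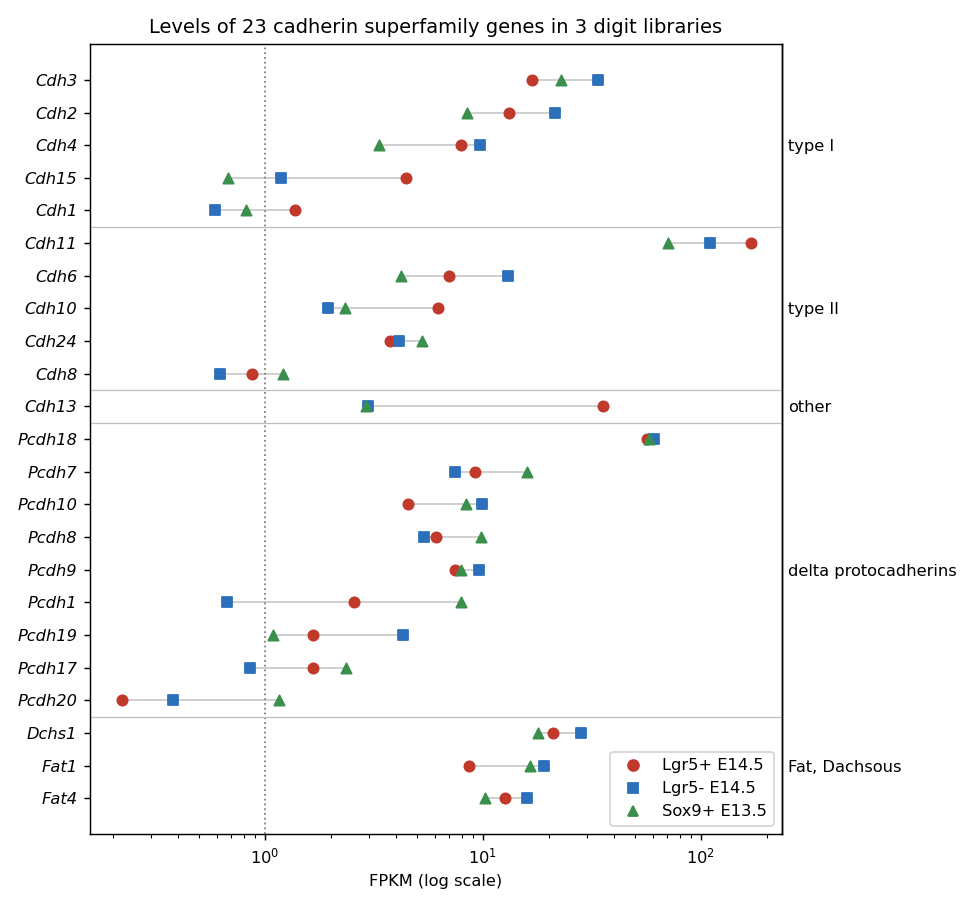
Level of each of the 23 genes that reached 1 FPKM, on a log axis in FPKM, with 1 point per library (circle, Lgr5+ E14.5; square, Lgr5- E14.5; triangle, Sox9+ E13.5) and rows grouped by subfamily. The dotted line marks 1 FPKM. Cdh13 stands apart in Lgr5+ cells, at 35.4 FPKM beside 2.97 FPKM in Lgr5- and 2.91 FPKM in Sox9+ cells, while the points of Pcdh18 nearly coincide.

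Differences of 2-fold or more between the highest and the lowest library were found for 11 of the 23 genes, against 13.9% of all genes at 1 FPKM or more. These were Cdh2, Cdh4, Cdh6, Cdh10, Cdh11, Cdh13, Cdh15, Fat1, Pcdh1, Pcdh7 and Pcdh19. The other 12 stayed within 2-fold in each pair. In bulk samples of this kind, more cells of a type and more RNA per cell cannot be told apart.

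**Figure D2:**
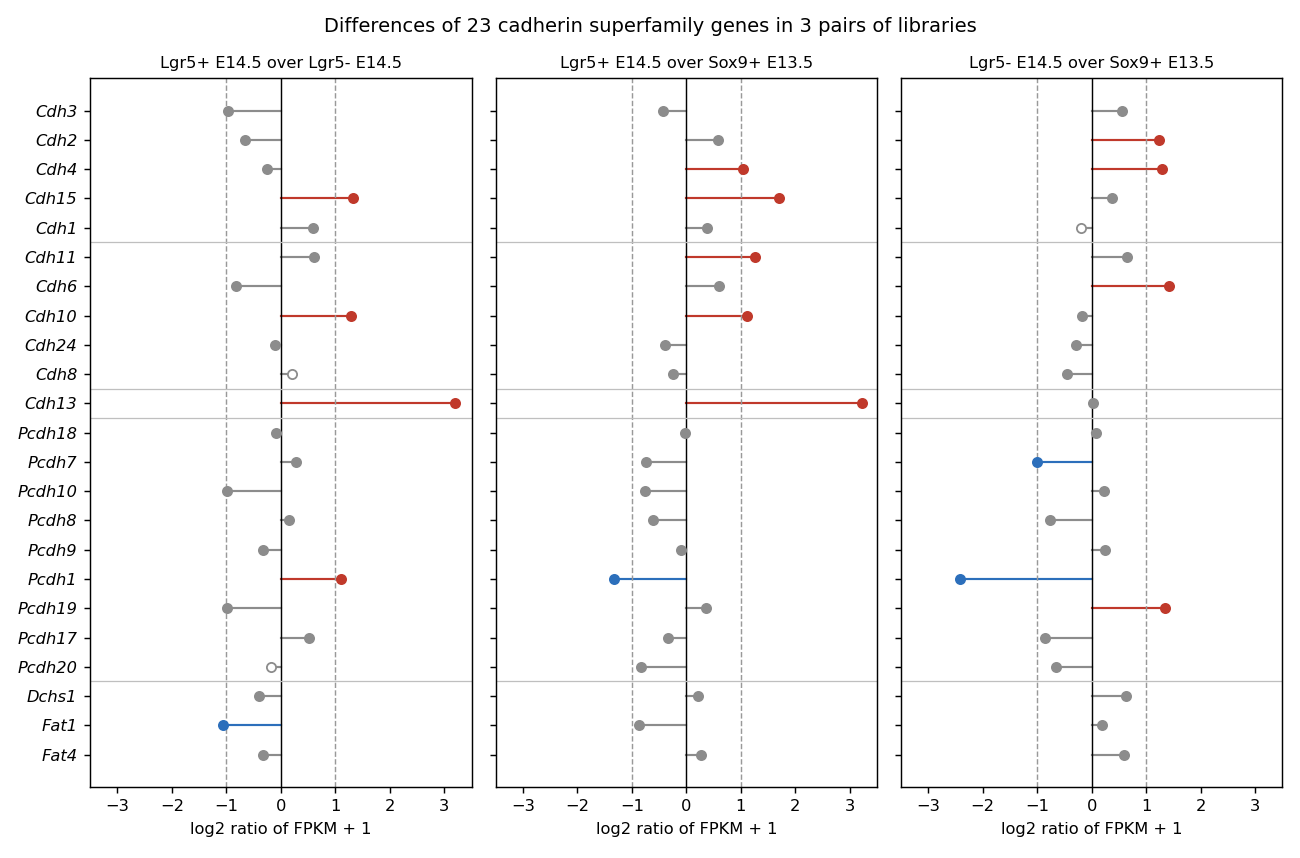
Log2 ratio of FPKM + 1 for the same 23 genes in the 3 pairs of libraries, with dashed lines at 2-fold (red, at least 2-fold higher; blue, at least 2-fold lower; grey, within 2-fold; open, below 1 FPKM in both libraries of the pair). The pairs share libraries and are not independent. Cdh13 has the largest ratio in both panels with the Lgr5+ library, and Pcdh1 the lowest value where Lgr5- cells are set against Sox9+ cells.

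T-cadherin (Cdh13), which is held in the membrane by a lipid anchor and lacks the catenin-binding tail, differed most. Cdh13 (GRCm38 chromosome 8, 118140017 to 119324929) stood at 35.4 FPKM in Lgr5+ cells, 2.97 FPKM in Lgr5- cells and 2.91 FPKM in Sox9+ cells. The level was thus high in 1 library and nearly equal in both others. Cdh13 was 9.17-fold higher in Lgr5+ than in Lgr5- cells, rank 21 from the top among 12438 measured genes, and 9.31-fold higher in Lgr5+ than in Sox9+ cells, rank 14 among 12492. Set against Cdh11 within each library, which removes the scaling of the library, Cdh13 had a ratio of 0.21 in Lgr5+ cells, 0.027 in Lgr5- cells and 0.041 in Sox9+ cells. Its 4 companions in the group of other cadherins were near 0: Cdh23, a tip link protein of hair cells, did not exceed 0.11 FPKM, and Cdh26, the kidney cadherin Cdh16 and the intestinal cadherin Cdh17 did not exceed 0.17 FPKM.

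Among the 13 type II cadherins 5 reached 1 FPKM. Cdh11 (chromosome 8, 102632095 to 102785493), the cadherin of osteoblasts and of the synovial lining, stood at 169 FPKM in Lgr5+ cells, 110.2 FPKM in Lgr5- cells and 70.4 FPKM in Sox9+ cells. It was 2.38-fold higher in Lgr5+ than in Sox9+ cells, while Lgr5+ over Lgr5- cells (1.53-fold) and Lgr5- over Sox9+ cells (1.56-fold) lay within 2-fold. Both E14.5 libraries were therefore above the E13.5 library, and Lgr5+ cells above both. Cdh10 (chromosome 15, 18818869 to 19016206), known mainly from neurons, followed another course, at 6.2 FPKM in Lgr5+ cells, 1.94 FPKM in Lgr5- cells and 2.34 FPKM in Sox9+ cells. This was 2.45-fold higher in Lgr5+ than in Lgr5- cells and 2.16-fold higher than in Sox9+ cells. Cdh6 (chromosome 15, 13028699 to 13176407), a cadherin of the early nephron, was highest in the GFP-negative cells instead, with 6.97 FPKM in Lgr5+ cells, 13 FPKM in Lgr5- cells and 4.23 FPKM in Sox9+ cells. Lgr5- cells were 2.68-fold above Sox9+ cells for Cdh6, and Lgr5+ cells were 1.76-fold below Lgr5- cells, within the threshold. The remaining pair differed little: Cdh24 lay between 3.75 and 5.25 FPKM and Cdh8 between 0.62 and 1.21 FPKM.

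The 5 type I cadherins all reached 1 FPKM somewhere. P-cadherin (Cdh3, chromosome 8, 106510852 to 106556911), a cadherin of basal epidermis and placenta, was the most abundant of them, at 16.8 FPKM in Lgr5+ cells, 33.8 FPKM in Lgr5- cells and 22.8 FPKM in Sox9+ cells. Cdh2, or N-cadherin, stood at 13.2 FPKM in Lgr5+ cells, 21.4 FPKM in Lgr5- cells and 8.47 FPKM in Sox9+ cells, and R-cadherin (Cdh4, chromosome 2, 179442423 to 179899377) at 7.95 FPKM in Lgr5+ cells, 9.66 FPKM in Lgr5- cells and 3.34 FPKM in Sox9+ cells. All of these were highest in Lgr5- cells, and Cdh2 and Cdh4 were lowest in Sox9+ cells. Over Sox9+ cells, Lgr5- cells were 2.36-fold higher for Cdh2 and 2.46-fold for Cdh4, and Lgr5+ cells were 2.06-fold higher for Cdh4 but only 1.5-fold for Cdh2. The Cdh4 difference between Lgr5+ and Sox9+ cells fell under 2-fold with median of ratios, upper quartile and quantile scaling. Between Lgr5+ and Lgr5- cells Cdh3 was 1.96-fold lower and Cdh2 1.57-fold lower.

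Together the 18 classical cadherins summed to 232.8 FPKM in Lgr5+ cells, 199.7 FPKM in Lgr5- cells and 121.3 FPKM in Sox9+ cells. Cdh11 made up 72.6% of that sum in Lgr5+ cells, 55.2% in Lgr5- cells and 58% in Sox9+ cells. Cdh3 made up 7.21% in Lgr5+ cells, against 16.9% in Lgr5- cells and 18.8% in Sox9+ cells. As ratios within a library, Cdh11 to Cdh2 was 12.8 in Lgr5+ cells, 5.15 in Lgr5- cells and 8.31 in Sox9+ cells, and Cdh11 to Cdh3 was 10.1 in Lgr5+ cells, 3.26 in Lgr5- cells and 3.08 in Sox9+ cells. The mix in Lgr5+ cells was thus weighted to Cdh11 and away from both Cdh2 and Cdh3.

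**Figure D3:**
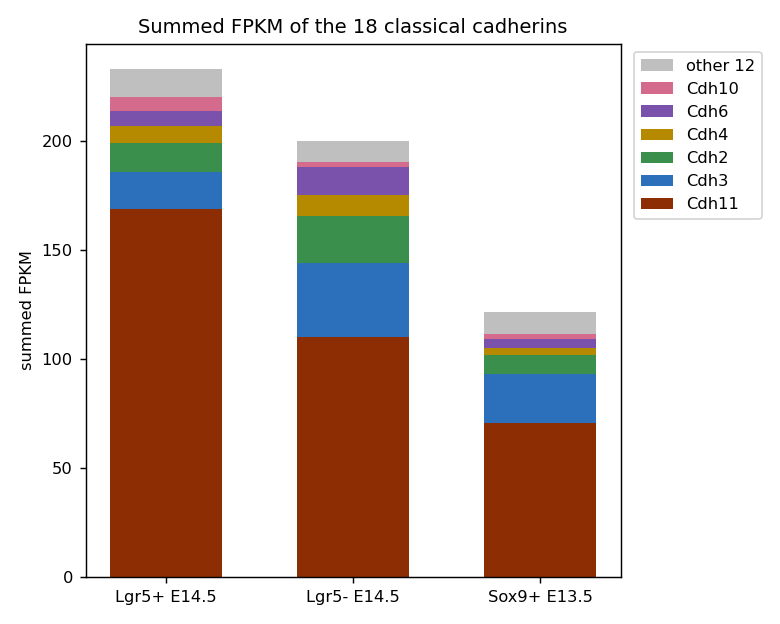
Summed FPKM of the 18 classical cadherins in each library, stacked by gene, with the other 12 genes drawn as 1 grey block. Cdh11 is the largest part of each bar, and the parts of Cdh3, Cdh2 and Cdh6 are largest in Lgr5- cells.

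Pcdh18, of the delta protocadherins, was the second most abundant gene of the family and the most even, at 56.8 FPKM in Lgr5+ cells, 60.6 FPKM in Lgr5- cells and 57.5 FPKM in Sox9+ cells. Pcdh9 was also even, between 7.43 and 9.62 FPKM. Pcdh1, a protocadherin of epithelia and neurons, differed in all 3 pairs, with 2.57 FPKM in Lgr5+ cells, 0.67 FPKM in Lgr5- cells and 7.9 FPKM in Sox9+ cells. It was 2.14-fold higher in Lgr5+ than in Lgr5- cells, 2.49-fold lower in Lgr5+ than in Sox9+ cells and 5.33-fold lower in Lgr5- than in Sox9+ cells, rank 54 from the bottom among 12482 measured genes. Pcdh7 (chromosome 5, 57716145 to 58133236) had 9.16 FPKM in Lgr5+ cells, 7.41 FPKM in Lgr5- cells and 15.9 FPKM in Sox9+ cells. Its 2.01-fold lower level in Lgr5- than in Sox9+ cells was just past the threshold and fell inside it under all 5 other scalings. An antisense-strand transcript listed at no more than 0.24 FPKM, 4932441J04Rik, overlaps 21.1% of the exonic bases of Pcdh7, and a kit that does not mark strand cannot separate them.

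Pcdh8, a protocadherin known from the segmenting mesoderm, and Pcdh17 and Pcdh20 were highest in Sox9+ cells as well. Pcdh8 stood at 6.07 FPKM in Lgr5+ cells, 5.39 FPKM in Lgr5- cells and 9.82 FPKM in Sox9+ cells, Pcdh17 at 1.66 FPKM in Lgr5+ cells, 0.85 FPKM in Lgr5- cells and 2.35 FPKM in Sox9+ cells, and Pcdh20 at 0.22 FPKM in Lgr5+ cells, 0.38 FPKM in Lgr5- cells and 1.16 FPKM in Sox9+ cells. Pcdh19 (chromosome X, 133582860 to 133689044), an X-linked gene tied to epilepsy in humans, and Pcdh10, known mainly from the brain, were highest in Lgr5- cells. Pcdh19 stood at 1.67 FPKM in Lgr5+ cells, 4.29 FPKM in Lgr5- cells and 1.09 FPKM in Sox9+ cells, 2.53-fold higher in Lgr5- than in Sox9+ cells. Pcdh10 had 4.52 FPKM in Lgr5+ cells, 9.95 FPKM in Lgr5- cells and 8.37 FPKM in Sox9+ cells. Both were 1.98-fold lower in Lgr5+ than in Lgr5- cells. Of the 9 delta protocadherins, 8 had a lower value in Lgr5+ than in Sox9+ cells, with a median log2 ratio of -0.61 against 0.06 over all measured genes, of which 44.3% had a lower value, though only Pcdh1 passed 2-fold. In this pair Pcdh20 reached 1 FPKM only in Sox9+ cells, so as a measured gene it could only count as lower. With each library rescaled to the same total (TPM) 6 of the 9 were lower, and leaving the most abundant genes out of the sum gave 7.

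Promoter sequence is shown for Pcdh8, Pcdh17 and Pcdh20, which share a chromosome and had their highest level in Sox9+ cells. RefSeq promoter entries matched 30 of the 43 members by symbol, and 15 of these reached 1 FPKM. Among these 15, only for Pcdh8, Pcdh17 and Pcdh20 did the window lie wholly outside both the RefSeq span of the gene and all GENCODE exons, so the other windows are not printed. Each run is the 250 bases before the annotated start, 5′ to 3′ on the strand of the gene, from RefSeq on GRCm38.p6. The bases just after that start were found in a GENCODE transcript of Pcdh8 and of Pcdh17, but in none of Pcdh20. The Pcdh20 start, and distances from it, thus rest on RefSeq alone. Capitals mark the CCAAT box, a common promoter element, as CCAAT or, on the other strand, ATTGG, a motif chosen after the sequences were read.
Pcdh8, chr14:79771313-79771562, minus strand: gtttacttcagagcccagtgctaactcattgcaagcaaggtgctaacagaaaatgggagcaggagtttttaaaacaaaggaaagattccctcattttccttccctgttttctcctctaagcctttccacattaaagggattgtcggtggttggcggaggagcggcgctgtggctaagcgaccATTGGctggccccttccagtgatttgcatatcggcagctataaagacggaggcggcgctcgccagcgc
Pcdh17, chr14:84443313-84443562, plus strand: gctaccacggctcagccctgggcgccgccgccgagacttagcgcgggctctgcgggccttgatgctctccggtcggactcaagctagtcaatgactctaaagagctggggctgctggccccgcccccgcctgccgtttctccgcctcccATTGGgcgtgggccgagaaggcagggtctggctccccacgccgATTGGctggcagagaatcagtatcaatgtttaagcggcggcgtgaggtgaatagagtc
Pcdh20, chr14:88471397-88471646, minus strand: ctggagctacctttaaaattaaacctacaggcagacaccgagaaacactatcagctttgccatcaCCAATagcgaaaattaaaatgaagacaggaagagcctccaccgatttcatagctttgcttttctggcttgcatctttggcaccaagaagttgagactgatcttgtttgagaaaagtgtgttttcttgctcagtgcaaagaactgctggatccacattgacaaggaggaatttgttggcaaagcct

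The window of Pcdh17 held 2 CCAAT boxes, at 101 and 58 bases before the start, and those of Pcdh8 and Pcdh20 held 1 each, at 68 and 185 bases. Over 32851 windows of the same length before RefSeq starts, 33.8% held at least 1 and 10.1% at least 2. None of the 3 windows held the E-box CANNTG, a motif read by basic helix-loop-helix factors that reads the same on both strands and was in 66.2% of all windows. The windows differed in base composition, with 51.2% G and C for Pcdh8, 64.8% for Pcdh17 and 42.4% for Pcdh20, against a median of 52.4%. A match is a description of letters and not a binding site.

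Fat and Dachsous proteins are giant cadherins, and Fat1, Fat4 and Dchs1 were each highest in Lgr5- cells. Fat1 (chromosome 8, 44933100 to 45052257), which acts on actin at cell borders, stood at 8.6 FPKM in Lgr5+ cells, 19 FPKM in Lgr5- cells and 16.5 FPKM in Sox9+ cells. It was 2.08-fold lower in Lgr5+ than in Lgr5- cells and 1.83-fold lower than in Sox9+ cells, so its level was low in 1 library only. Fat4 had 12.6 FPKM in Lgr5+ cells, 16 FPKM in Lgr5- cells and 10.3 FPKM in Sox9+ cells, and its partner Dchs1 (chromosome 7, 105752989 to 105788355) had 21 FPKM in Lgr5+ cells, 28.3 FPKM in Lgr5- cells and 18 FPKM in Sox9+ cells. The ratio of Dchs1 to Fat4 within a library hardly varied, at 1.67 in Lgr5+ cells, 1.77 in Lgr5- cells and 1.75 in Sox9+ cells, while Fat4 to Fat1 was 1.46 in Lgr5+ cells, 0.84 in Lgr5- cells and 0.62 in Sox9+ cells. Fjx1, the mouse relative of a fly kinase that acts on Fat and Dachsous, stood at 86.9 FPKM in Lgr5+ cells, 61 FPKM in Lgr5- cells and 44.2 FPKM in Sox9+ cells, within 2-fold in each pair. A pseudogene on the other strand, Gm15645, overlaps 5.86% of the exonic bases of Dchs1 and was listed at 4.75 FPKM in Lgr5+ cells, 3.6 FPKM in Lgr5- cells and 9.4 FPKM in Sox9+ cells. Fat3 (0.48 to 0.71 FPKM) and Fat2 (at most 0.03 FPKM) were low.

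Counted by pair, 21 of the 43 genes were measured in Lgr5+ against Lgr5- cells. Of these 4 were at least 2-fold higher in Lgr5+ cells (Cdh13, Cdh15, Cdh10 and Pcdh1), which is 19% against 3.64% of all measured genes, and 1, Fat1, was lower, which is 4.76% against 1.89%. In this pair Pcdh1, Cdh1 and Pcdh17 reached 1 FPKM only in Lgr5+ cells, so as measured genes they could not count as lower. The median log2 ratio was -0.11, against 0.08 over all measured genes, so the family as a whole was not shifted upward. With median of ratios, upper quartile, quantile scaling or the sum without abundant genes, 4 were higher and 4 lower, because Cdh3, Pcdh10 and Pcdh19 lay just short of the threshold. Over all genes 453 were higher and 235 lower, and with upper quartile scaling 380 and 289. In Lgr5+ against Sox9+ cells, 5 of 23 were higher (Cdh13, Cdh15, Cdh11, Cdh10 and Cdh4), 21.7% against 4.33%, and 1 was lower (Pcdh1), 4.35% against 3.96%, which is near the background. Here Cdh15 and Cdh1 reached 1 FPKM only in Lgr5+ cells and could not count as lower. Cdh8 and Pcdh20 did so only in Sox9+ cells and could not count as higher. The median was -0.02 against 0.06, and turned to 0.29 with TPM, where 5 were higher and 2 lower. TPM multiplies each value by 1.68 to 1.87, so it shrinks the added 1 and the minimum of 1 FPKM as well as rescaling the libraries. Over all genes it gave 981 higher and 533 lower in this pair, with 13406 genes measured, in place of 541 and 495 among 12492. A pseudocount of 0.5 without rescaling gave 725 higher and 641 lower. In Lgr5- against Sox9+ cells, 4 of 22 were higher (Cdh6, Pcdh19, Cdh4 and Cdh2), 18.2% against 3.08%, and 2 were lower (Pcdh1 and Pcdh7), 9.09% against 4.94%, with a median of 0.21 against -0.01. In this pair Pcdh1, Pcdh17, Pcdh20 and Cdh8 reached 1 FPKM only in Sox9+ cells and could not count as higher. Cdh15 did so only in Lgr5- cells and could not count as lower. Under each of the 5 other scalings 4 were higher and 1 lower, and over all genes TPM gave 706 higher and 644 lower in place of 384 and 617, where a pseudocount of 0.5 alone gave 556 and 781. These pairs share libraries, so their counts are not independent of each other.

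**Figure D4:**
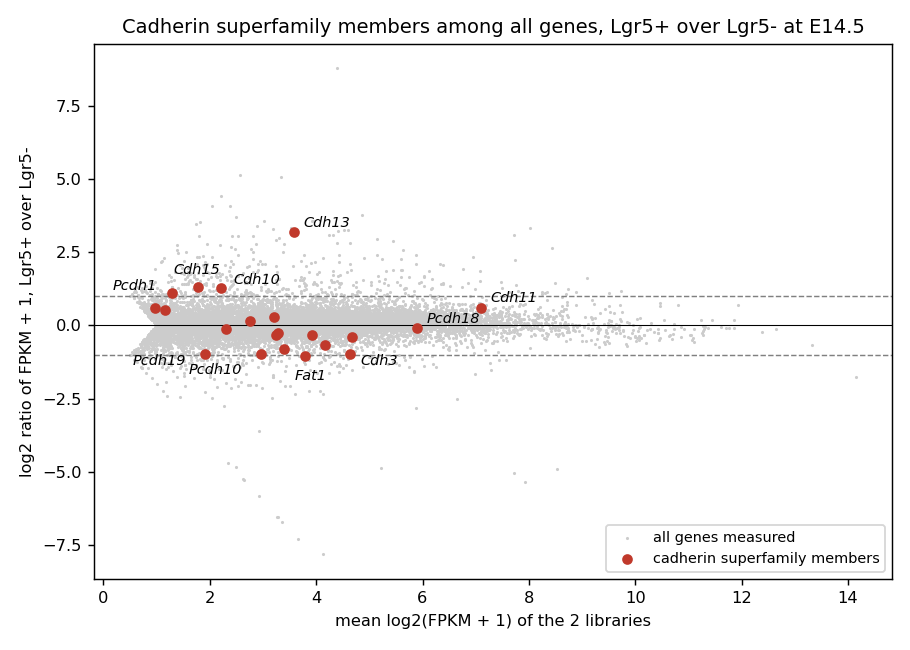
Log2 ratio of FPKM + 1 in Lgr5+ over Lgr5- cells (vertical axis) by mean log2(FPKM + 1) of both libraries (horizontal axis), for all 12438 measured genes (grey) and the 21 measured members (red), with dashed lines at 2-fold. Cdh13 lies high above the line at 3.2, and Cdh3, Fat1, Pcdh10 and Pcdh19 lie along the lower line.

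Some members are markers of cell types other than digit mesenchyme, and their levels are given beside those markers. M-cadherin (Cdh15, chromosome 8, 122848374 to 122867397), which joins myoblasts, stood at 4.43 FPKM in Lgr5+ cells, 1.18 FPKM in Lgr5- cells and 0.68 FPKM in Sox9+ cells, 2.49-fold higher in Lgr5+ than in Lgr5- cells and 3.23-fold higher than in Sox9+ cells. The 10 muscle markers summed to 105.1 FPKM in Lgr5+ cells, 27.7 FPKM in Lgr5- cells and 19.7 FPKM in Sox9+ cells. Of these markers, 8 of 10 were at least 2-fold higher in Lgr5+ than in Lgr5- cells, against 3.64% of all measured genes, and none was at 0, with the myogenic factor gene Myod1 at 8.77 FPKM in Lgr5+ cells, 1.69 FPKM in Lgr5- cells and 0.46 FPKM in Sox9+ cells. All 10 reached 1 FPKM in Lgr5+ cells, but only 7 in Lgr5- cells. Myf5, Myh3 and Chrna1 entered through the Lgr5+ library alone and could not be lower, so 3.64% is not a like background for them. Cdh15 and the muscle sum thus had the same order of libraries, and the part of muscle cells in the Cdh15 difference was not tested.

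E-cadherin (Cdh1, chromosome 8, 106603350 to 106670247), the cadherin of epithelia, was near the floor of what is called measured, at 1.38 FPKM in Lgr5+ cells, 0.59 FPKM in Lgr5- cells and 0.82 FPKM in Sox9+ cells. The 12 epidermis markers summed to 61.1 FPKM in Lgr5+ cells, 28 FPKM in Lgr5- cells and 68.4 FPKM in Sox9+ cells, and none of the 12 was at 0. Of 10 measured markers 5 were at least 2-fold higher in Lgr5+ than in Lgr5- cells, against 3.64% of all measured genes. These 5 were low in Lgr5- cells, at 1.78 FPKM or less. Krt14, which is among them, and Esrp2 reached 1 FPKM only in Lgr5+ cells of this pair and could not be lower. Krt8 did so only in Lgr5- cells and could not be higher. The order of this sum rested on 1 gene, the simple-epithelium keratin Krt18, at 4.93 FPKM in Lgr5+ cells, 9.41 FPKM in Lgr5- cells and 26.9 FPKM in Sox9+ cells. Without Krt18 the sum was 56.2 FPKM in Lgr5+ cells, 18.6 FPKM in Lgr5- cells and 41.6 FPKM in Sox9+ cells, which is the order of Cdh1. Of the 12 markers 8 were highest in Lgr5+ cells, as Cdh1 was, among them the basal keratins Krt5 and Krt14. Another 3, Krt8, Krt18 and Perp, were highest in Sox9+ cells. The epithelial marker Epcam was highest in Lgr5- cells, at 3.9 FPKM in Lgr5+ cells, 8.76 FPKM in Lgr5- cells and 6.25 FPKM in Sox9+ cells. Krt18 is thus not the only marker that departs from the order of Cdh1. Cdh3, which lies 46438 bases from Cdh1 on chromosome 8 and is shared by basal epidermis, had its highest level in Lgr5- cells, where both sums were lowest, and Cdh3 to Cdh1 was 12.2 in Lgr5+ cells, 57.3 in Lgr5- cells and 27.8 in Sox9+ cells.

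VE-cadherin (Cdh5), the endothelial cadherin, stood at 0.72 FPKM in Lgr5+ cells, 0.97 FPKM in Lgr5- cells and 0.39 FPKM in Sox9+ cells, and Pcdh12, another endothelial member, at 0.06 FPKM in Lgr5+ cells, 0.21 FPKM in Lgr5- cells and 0.04 FPKM in Sox9+ cells. The 10 endothelium markers summed to 33 FPKM in Lgr5+ cells, 44.9 FPKM in Lgr5- cells and 28.1 FPKM in Sox9+ cells, with none at 0. None was 2-fold different between the Lgr5 libraries, where 3.64% of all measured genes were higher in Lgr5+ cells and 1.89% lower. Cdh19, found in Schwann cell precursors, stood at 0.34 FPKM in Lgr5+ cells, 0.01 FPKM in Lgr5- cells and 0.52 FPKM in Sox9+ cells. The 9 Schwann and neural crest markers summed to 15.8 FPKM in Lgr5+ cells, 10.8 FPKM in Lgr5- cells and 35.8 FPKM in Sox9+ cells. For Cdh5 and Cdh19, as for Cdh15, the order of the libraries was that of the marker sum, also with each marker left out in turn, a check chosen after the values were seen. For Cdh1 it was not that of the full epidermis sum, but was that of the sum without Krt18. What these cells contribute to the low values was not tested.

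**Figure D5:**
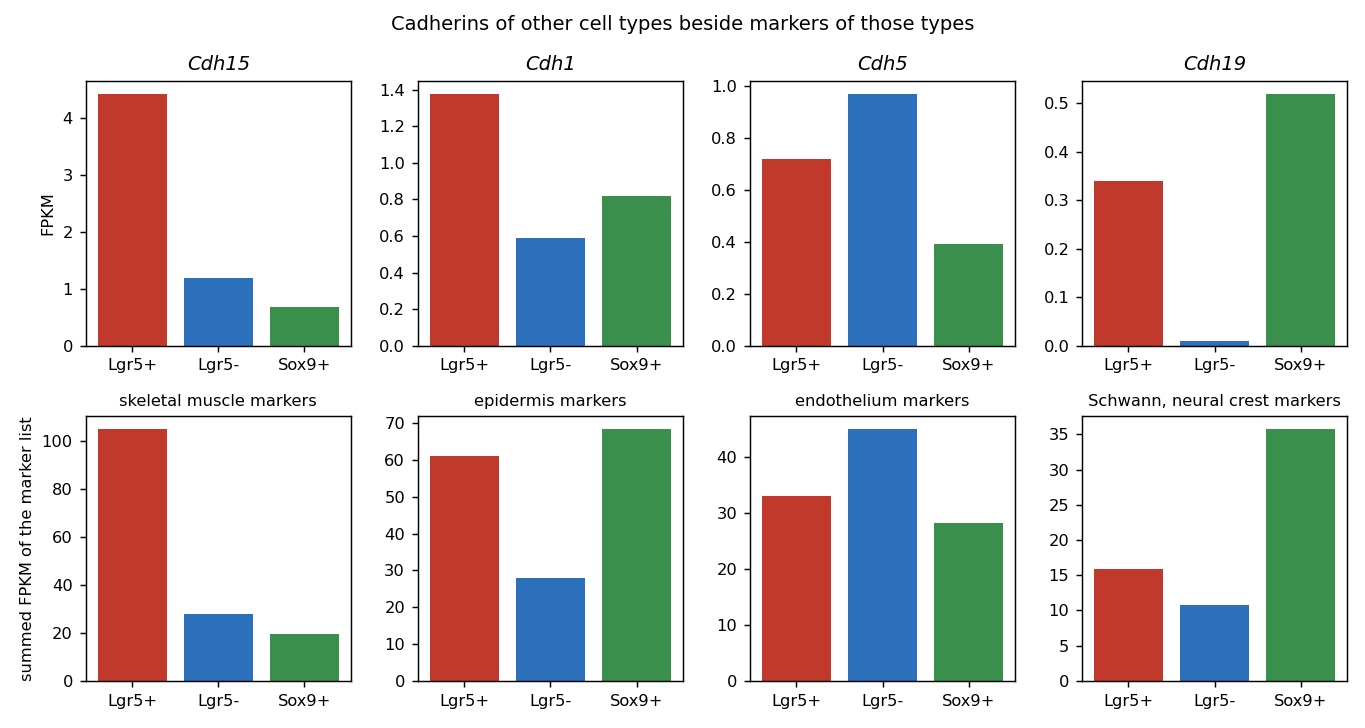
Upper row, FPKM of 4 cadherins of other cell types in the 3 libraries; lower row, summed FPKM of the marker list of that cell type. Each axis starts at 0 and has its own scale. Cdh15, Cdh5 and Cdh19 have their highest and lowest bars in the same libraries as their lists, whereas Cdh1 is highest in Lgr5+ cells and the epidermis list in Sox9+ cells, where Krt18 alone gives 26.9 of the 68.4 FPKM.

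In all, 20 of the 43 members stayed under 1 FPKM in each library, with none above 0.97 FPKM. Besides Cdh5, Cdh19, Pcdh12, Fat2, Fat3, Cdh16, Cdh17, Cdh23 and Cdh26 these were the type II genes Cdh7, Cdh9, Cdh12, Cdh18, Cdh20 and Cdh22, the hair cell gene Pcdh15, the photoreceptor gene Cdhr1, the brush border genes Cdhr2 and Cdhr5, and Cdhr3. Cdh16 and Cdhr2 were listed at 0 in all 3 libraries. Chromosome 8 holds 9 of the 43 members and 4 of the 5 that were highest in Lgr5+ cells (Cdh1, Cdh11, Cdh13 and Cdh15), while Cdh3 and Fat1 on the same chromosome were highest in Lgr5- cells. On chromosome 14, 4 of 5 expressed members were highest in Sox9+ cells (Cdh24, Pcdh8, Pcdh17 and Pcdh20), and on chromosome 3 all of Fat4, Pcdh10 and Pcdh18 were highest in Lgr5- cells. Pcdh18 was so by little, with all libraries between 56.8 and 60.6 FPKM. The same shares over all genes of each chromosome were not computed, so no pattern by chromosome is drawn from these counts. Cdh6 and Cdh10, 5642461 bases apart on chromosome 15, had opposite orders in the Lgr5 libraries.

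The partners of cadherins were read from lists of related genes. Among catenins and vinculin, 9 of 11 genes were measured in each pair. Beta-catenin (Ctnnb1), which links classical cadherins to alpha-catenin, stood at 122.9 FPKM in Lgr5+ cells, 137.2 FPKM in Lgr5- cells and 138.6 FPKM in Sox9+ cells, and alpha-catenin (Ctnna1) at 97.6 FPKM in Lgr5+ cells, 71.6 FPKM in Lgr5- cells and 73.2 FPKM in Sox9+ cells. Both were thus within 2-fold in a set of libraries where Cdh11 spanned more. In Lgr5+ over Lgr5- cells 2 of 9 were at least 2-fold higher and none lower, against 3.64% higher and 1.89% lower over all measured genes. They were Ctnnd2, a delta-catenin of neurons, with 4.05 FPKM in Lgr5+ cells, 1.38 FPKM in Lgr5- cells and 1.13 FPKM in Sox9+ cells, and Ctnnal1, with 20.4 FPKM in Lgr5+ cells, 9.26 FPKM in Lgr5- cells and 13.4 FPKM in Sox9+ cells. Over Sox9+ cells, 2 of 9 were higher in Lgr5+ cells (Ctnnd2 and the plakoglobin gene Jup), against 4.33% of all measured genes, and none of 9 differed in Lgr5- cells.

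Of 8 measured genes for transcription factors known to repress Cdh1, 3 were at least 2-fold lower in Lgr5+ than in Lgr5- cells and none was higher, against 1.89% lower over all measured genes. Their median log2 ratio was -0.51, against 0.08 over all measured genes. Twist1 stood at 70.3 FPKM in Lgr5+ cells, 222.9 FPKM in Lgr5- cells and 111.2 FPKM in Sox9+ cells, and Twist2 and Zeb2 were the others. Snai1 and Snai2 were the 2 of 7 at least 2-fold lower in Lgr5+ than in Sox9+ cells, where 3.96% of all measured genes were lower, with Snai1 at 29.1 FPKM in Lgr5+ cells, 38.3 FPKM in Lgr5- cells and 60.3 FPKM in Sox9+ cells. In Lgr5- over Sox9+ cells 1 of 8 was higher, Zeb2, and none lower, against 3.08% higher over all measured genes. Twist1 lay just short of the threshold in this pair, at 1.996-fold higher on FPKM + 1. The median log2 ratio of the 8 was 0.36, against -0.01 over all measured genes.

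Of the 6 enzymes that cut or mature cadherins, none differed by 2-fold between the Lgr5 libraries or in Lgr5- over Sox9+ cells, and 1, the protease gene Adam15, was higher in Lgr5+ than in Sox9+ cells (4.33% over all measured genes), with 21.1 FPKM in Lgr5+ cells, 10.2 FPKM in Lgr5- cells and 8.37 FPKM in Sox9+ cells. None of the 3 measured nectin and afadin genes, which build a calcium-independent contact beside cadherins, differed by 2-fold in any pair, and likewise none of the 5 to 6 measured genes of the Fat and planar polarity list.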

How the data were processed

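RNA was measured in 3 libraries, 1 per population, each from 10 ng of RNA and a low-input SMARTer kit, per the labels' protocols. The deposited values are FPKM, 1 per gene symbol with 2 decimals, made by the authors. The submitters' processing notes name HISAT2, mm10 and GRCm38. The sources used here do not give the quantifier, annotation or treatment of multimapping reads. FPKM are shares of a library, no counts were used, and depth is unknown, so no interval is given. Low input and amplification add noise to low genes.

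From these files, log2 ratios of FPKM + 1 were computed for the 3 pairs with Python 3.11.15 and pandas, with a minimum of 1 FPKM in the higher library and a threshold of 2-fold, and checked on simulated data. Every member is named. Members at 1 FPKM or more get values and those past 2-fold get folds. Positions are RefSeq spans on GRCm38.p6, and exon overlaps come from GENCODE M21. Protein sequences were not used here. The members and lists were chosen with earlier results of these data known.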

Additional observations from a re-analysis of the deposited data

How the results depend on the processing

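No member past 2-fold changed its direction under any alternative. Of 575 member ratios listed under other pseudocounts, minima and scalings, 538 kept direction and side of the threshold. Another 8 fell inside it (Cdh4 in Lgr5+ over Sox9+ cells, Pcdh7 in Lgr5- over Sox9+ cells) and 26 passed it. The 538 include all ratios under other minima. A minimum only selects genes and leaves each ratio as it was, so these could not change and show no stability. The sign changed in 3 ratios near 0, those of Pcdh9 and Pcdh18 in Lgr5+ over Sox9+ cells. Counts are small and moved with the threshold. For Lgr5+ over Lgr5- cells, higher members numbered 2 with a minimum of 5 FPKM and 1 at 3-fold. Over all measured genes these were 336 of 8991 and 1.36%. Lower members numbered 4 with pseudocount 0.1 and with median of ratios, upper quartile, quantile scaling and the sum without abundant genes, 3 with pseudocount 0.5 and TPM, 6 at 1.5-fold and 0 at 3-fold. Over all measured genes 5.96% were lower at 1.5-fold and 0.49% at 3-fold. With the pseudocounts and scalings 274 to 458 were lower, of 12414 to 13427 measured. For Lgr5+ over Sox9+ cells, higher members numbered 2 at 3-fold, and lower members 2 with pseudocount 0.1, pseudocount 0.5 and TPM, 6 at 1.5-fold and 0 at 3-fold. Over all measured genes 1.38% were higher at 3-fold, and 9.9% were lower at 1.5-fold and 1.24% at 3-fold. Lower genes numbered 785 with pseudocount 0.1, 641 with pseudocount 0.5 and 533 with TPM. For Lgr5- over Sox9+ cells, higher members numbered 7 at 1.5-fold and 0 at 3-fold, and lower members 4 with pseudocount 0.1, 1 with TPM, median of ratios, upper quartile, quantile scaling and the sum without abundant genes, 5 at 1.5-fold and 1 at 3-fold. Over all measured genes 9.5% were higher at 1.5-fold and 0.945% at 3-fold, and 12.8% and 1.57% were lower. Lower genes numbered 958 with pseudocount 0.1 and 488 to 644 with the scalings. Rescaling to TPM moved the median log2 ratio of all genes to 0.21 in Lgr5+ over Sox9+ cells and to 0.11 in Lgr5- over Sox9+ cells, and the sum without abundant genes moved the second of these to 0.12. No paired analysis was possible because each group had 1 library, and no library could be left out.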

Other observations

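The clustered protocadherins, which give neurons their surface identity, were listed as 58 genes and summed to 112.5 FPKM in Lgr5+ cells, 127.1 FPKM in Lgr5- cells and 95.3 FPKM in Sox9+ cells. In Lgr5+ over Lgr5- cells none of 33 measured genes was at least 2-fold higher and 1 was lower (3.03% against 1.89% of all measured genes), Pcdhac2, at 0.89 FPKM in Lgr5+ cells, 3.18 FPKM in Lgr5- cells and 1.23 FPKM in Sox9+ cells. In Lgr5- over Sox9+ cells 29 of 31 had a higher value (93.5% against 49.4% of all measured genes), though none by 2-fold, with a median log2 ratio of 0.33 against -0.01 over all measured genes. In Lgr5- cells 30 of the clustered genes reached 1 FPKM, but in Sox9+ cells only 23. Genes that entered through the Lgr5- library alone could only be higher, so the filter tilts this share and median upward. Members of the alpha cluster share their last exons, as do those of the gamma cluster, so how reads were split among them is uncertain. The genes of the clusters are not treated as independent of each other.

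Desmosome genes, which join epithelial cells, summed to 7.51 FPKM in Lgr5+ cells, 2.3 FPKM in Lgr5- cells and 3.65 FPKM in Sox9+ cells. Of 13 genes, 4 were measured in Lgr5+ over Lgr5- cells. Dsp (1.46 against 0.12 FPKM) and Pkp3 (1.96 against 0.4 FPKM) were at least 2-fold higher in Lgr5+ cells. No desmosome gene reached 1 FPKM in Lgr5- cells, so all 4 entered through the Lgr5+ library and could not be lower. The 3.64% of all measured genes that were higher is therefore not a like background. In Lgr5+ over Sox9+ cells none of 4 measured genes differed by 2-fold, with a median log2 ratio of 0.56 against 0.06 over all measured genes. Of these 4 only Pkp3 reached 1 FPKM in Sox9+ cells, so the filter itself tilts this median upward.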
